A study of Mus musculus with 9 samples.

Results

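Of the 30915 genes in a microarray table of embryonic brown adipose tissue (BAT), 10 genes known from bone and cartilage were followed. They were chosen by symbol as regulators and markers of these tissues, and all 10 had an entry. Runx2, Sp7, Sox5 and Sox6 encode transcription factors, Alpl and Phex enzymes that act on mineralisation, Ibsp a bone matrix protein, and Acan, Matn1 and Comp proteins of the cartilage matrix. The tissue came from untreated wild-type (WT) C57Bl6J mouse embryos of 3 ages in embryonic days, E14.5, then E15.5, then E16.5. For every age 3 arrays were run, each on RNA pooled from the BAT of 3 embryos in an independent preparation, so a value averages whole tissue pieces of several animals. In such bulk RNA, fewer cells of a type and less RNA per cell cannot be told apart.

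BAT is the fat depot that makes heat, and brown adipocytes of the trunk arise from somitic mesoderm, which also gives rise to skeletal muscle, vertebrae and ribs. In the osteoblast lineage RUNX2 acts first, SP7 (osterix) acts downstream of it, and both are required for bone to form. In chondrocytes SOX9 starts the programme, and SOX5 and SOX6, which bind DNA but lack a transactivation domain of their own, help SOX9 to switch on matrix genes such as Acan. Some of these factors act outside the skeleton too, as SOX6 does in skeletal muscle and red cell precursors.

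The promoter stretches below belong to 5 members that changed between E14.5 and E16.5. They are shown because Runx2, Alpl and Phex fell while Sox5 and Sox6 rose, so the windows of both directions can be read side by side. Each is the 250 bases before a RefSeq start site in build GRCm38.p6, 5′ to 3′ in the direction of the gene. Capitals mark the RUNX motif TGTGGT or its reverse complement ACCACA, and the SOX motif AACAAT or its reverse complement ATTGTT.
Runx2 promoter, chr17:44814628-44814877, minus strand: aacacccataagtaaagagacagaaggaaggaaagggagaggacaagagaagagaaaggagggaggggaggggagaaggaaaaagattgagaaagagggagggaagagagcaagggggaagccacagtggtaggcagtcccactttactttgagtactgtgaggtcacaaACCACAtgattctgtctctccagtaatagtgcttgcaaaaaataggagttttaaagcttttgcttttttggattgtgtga
Alpl promoter, chr4:137796385-137796634, minus strand: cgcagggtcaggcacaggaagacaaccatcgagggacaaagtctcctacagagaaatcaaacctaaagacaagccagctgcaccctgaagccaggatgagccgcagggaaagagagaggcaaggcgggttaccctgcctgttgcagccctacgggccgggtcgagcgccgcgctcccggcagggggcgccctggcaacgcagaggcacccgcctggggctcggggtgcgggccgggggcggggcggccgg
Phex promoter, chrX:157415287-157415536, minus strand: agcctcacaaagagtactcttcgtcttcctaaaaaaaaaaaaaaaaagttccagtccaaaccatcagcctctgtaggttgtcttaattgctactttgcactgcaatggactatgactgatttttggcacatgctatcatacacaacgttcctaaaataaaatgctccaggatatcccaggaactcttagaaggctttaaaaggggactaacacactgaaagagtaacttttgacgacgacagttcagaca
Sox5 promoter, chr6:143947107-143947356, minus strand: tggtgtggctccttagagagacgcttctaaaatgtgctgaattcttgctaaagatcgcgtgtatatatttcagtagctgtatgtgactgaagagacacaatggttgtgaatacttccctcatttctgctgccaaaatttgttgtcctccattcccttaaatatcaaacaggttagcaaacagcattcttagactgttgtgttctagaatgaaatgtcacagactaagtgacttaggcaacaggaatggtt
Sox6 promoter, chr7:115824711-115824960, minus strand: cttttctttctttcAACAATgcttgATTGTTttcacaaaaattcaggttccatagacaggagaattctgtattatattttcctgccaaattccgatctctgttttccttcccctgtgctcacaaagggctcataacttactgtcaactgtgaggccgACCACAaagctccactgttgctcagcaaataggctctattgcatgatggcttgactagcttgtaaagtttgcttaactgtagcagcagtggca

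RefSeq promoters were matched for 8 of the 10 members, with 14 windows. Sp7 and Comp were not among them. Runx2 itself had an ACCACA whose first base lay at position -80 from the start site used. That window, 44814628 to 44814877, partly overlaps the gene, which begins at 44814797 on the minus strand. The match lies in the overlapping part, so within the gene. The fifth of the 6 Sox6 windows, chosen for display after the search because it held the most matches, had an AACAAT and an ATTGTT near its far end and an ACCACA nearer the start. Neither motif was found in the windows of Alpl, Phex or Sox5. The only Sox5 window and the Sox6 window shown lie inside these genes, at start sites within them. On the minus strand the genes begin at 144782287 for Sox5 and 116040776 for Sox6. The Sox6 window closest to that gene's outer end, 116038745 to 116038994, also lies inside it. The stretches before the outermost starts of Sox5 and Sox6 were therefore not searched. Of the 14 windows 4 held a RUNX motif and 1 a SOX motif, while among all 32851 windows of this length 14% held the RUNX motif and 9.42% the SOX motif. The motifs do not overlap in letters, a match is a description of the sequence, and the absence of these letters says nothing of other sites.

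The values were log2 expression made with RMA, per the submitters' processing notes, the step that corrects background, scales the arrays to each other and combines the probes of a feature. No detection calls were used here, so 1469 olfactory and vomeronasal receptor genes, which serve smell and pheromone sensing, stood in for genes that are not expressed. A gene was taken as above this level at a stage when it exceeded the 95th percentile of the receptor genes on all 3 arrays. By that rule 56.9% of all genes were above it at E14.5, 55.7% at E15.5 and 52.5% at E16.5. E16.5 replicate 2 had this percentile at 4.81, and the other 8 arrays had it at 4.26 to 4.42. That array stood apart in the same way in its median over all genes, 5.05 against 4.79 to 4.85 elsewhere, and it gave the highest value of its stage for 78.7% of all genes and for 7 of the 10 members. Results that rest on it are therefore given without it as well. From E14.5 to E16.5 the receptor genes had a median log2 change of 0.22, and 0.09 without that array. The tissue carried its own label's markers, since 9 of 10 brown adipocyte genes were above the receptor level at E14.5 and all 10 at E15.5 and E16.5. At E14.5 all 13 skeletal muscle genes and all 6 leukocyte genes were above it too, so passing this level does not set BAT apart. The number of arrays limits the precision of every value.

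Runx2 declined over the 2 days. Its log2 expression was 5.73, 5.26 and 5.61 on the E14.5 arrays, 5.15 on each of the E15.5 arrays, and 4.70, 5.18 and 4.61 on the E16.5 arrays. All E14.5 values lay above all others, and the E15.5 value was the same number on all 3 arrays, so its SD of 0 is no measure of the spread between pools. The E16.5 arrays averaged 4.83 ± 0.31 and the E14.5 arrays 5.53 ± 0.24 (SD, n = 3 each), a log2 change of -0.70 ± 0.16 (SE), or 1.63-fold lower (limma adjusted p = 0.00393). E16.5 replicate 2 was the highest of its stage, and without it the log2 change was -0.88 (limma adjusted p = 2.98e-04). The single days did not pass, with log2 changes of -0.38 (limma adjusted p = 0.128) on the first and -0.32 (limma adjusted p = 0.188) on the second. Without E16.5 replicate 2 both passed, at -0.38 (limma adjusted p = 0.0263) and -0.50 (limma adjusted p = 0.0147). The 3 identical E15.5 values add no spread to the variance used in all these fits, so the adjusted p-values of Runx2 may be too small. At E16.5 the gene was 0.19 to 0.37 above the receptor percentile of the same array, against 0.94 to 1.47 at E14.5.

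Sp7, the factor that follows RUNX2 in bone formation, was near the low end of the scale. Its values were 3.97, 4.15 and 4.23 at E14.5, 4.23, 4.19 and 4.14 at E15.5, and 4.32, 4.29 and 4.47 at E16.5, and 1 of the 9 values, that of E16.5 replicate 3, exceeded the receptor percentile. The E16.5 values lay above the other stages by a small margin. The log2 change of E16.5 against E14.5 was 0.24 ± 0.09 (SE) and missed the threshold (limma adjusted p = 0.0562). It passed without E16.5 replicate 2, at 0.28 (limma adjusted p = 0.0275), while the receptor genes had a median of 0.09 in the same fit.

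Sox5 and Sox6 rose together on the second day. Sox5 had log2 expression of 5.10, 5.57 and 5.05 at E14.5, 5.51, 5.40 and 5.59 at E15.5, and 6.53, 6.67 and 6.83 at E16.5. Sox6 had 6.65, 6.59 and 6.28 at E14.5, 6.62, 6.72 and 6.74 at E15.5, and 7.51, 7.68 and 7.64 at E16.5. For both genes the E14.5 and E15.5 arrays overlapped, and all E16.5 arrays lay above them.

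On the second day Sox5 rose by 1.17 ± 0.14 in log2 (SE), or 2.26-fold (limma adjusted p = 1.62e-04), and Sox6 by 0.92 ± 0.11, or 1.89-fold (limma adjusted p = 1.37e-04). Over both days the rises were 1.44 ± 0.14 for Sox5 (2.71-fold, limma adjusted p = 8.35e-06) and 1.10 ± 0.11 for Sox6 (2.15-fold, limma adjusted p = 7.99e-06). On the first day neither passed, with 0.26 (95% interval -0.04 to 0.57, limma adjusted p = 0.266) for Sox5 and 0.18 (-0.05 to 0.42, limma adjusted p = 0.322) for Sox6. Sox5 passed on the first day without E14.5 replicate 2, the highest of its stage, at 0.43 (limma adjusted p = 0.0292).

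**Figure D1:**
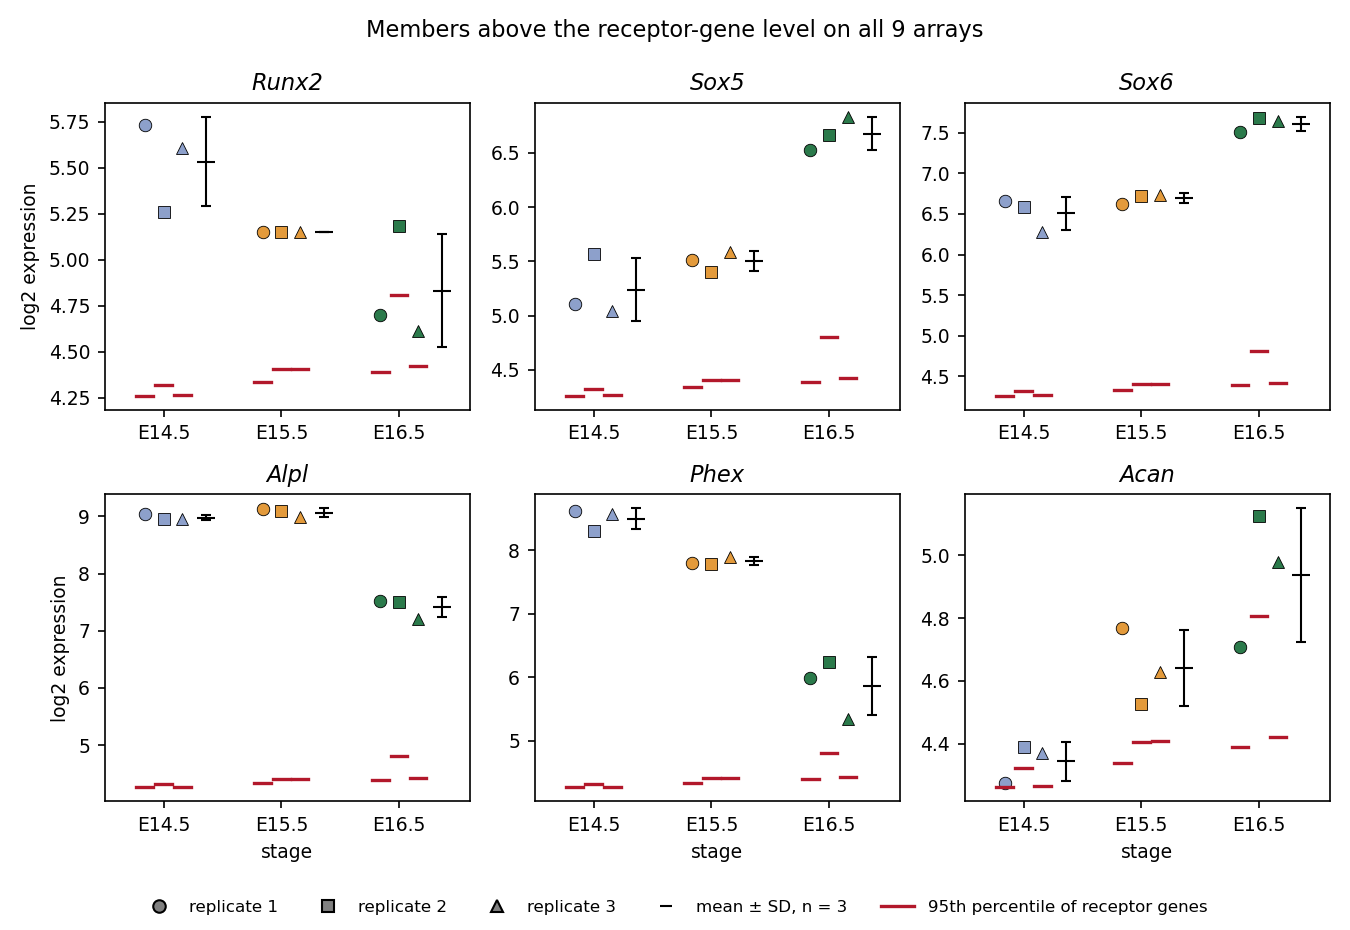
Log2 expression of 6 members by stage, with a marker for each array, the mean ± SD of 3 arrays beside them, and a red line for the 95th percentile of receptor genes on the same array. Alpl and Phex drop at E16.5, Sox5 and Sox6 climb there, Runx2 nears the red line (4.70, 5.18 and 4.61 at E16.5) and Acan stays close to it throughout.

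Alpl, which encodes tissue-nonspecific alkaline phosphatase, held its level for a day and then fell. This enzyme removes the mineral inhibitor pyrophosphate in bone, and in mouse brown adipocytes it is also known to act on phosphocreatine in mitochondria. Its log2 expression was 9.03, 8.95 and 8.95 at E14.5, 9.13, 9.09 and 8.98 at E15.5, and 7.52, 7.51 and 7.21 at E16.5. The first 2 stages overlapped and every E16.5 array lay far below them. The first-day change was 0.09 (95% interval -0.13 to 0.30, limma adjusted p = 0.691). On the second day Alpl averaged 7.41 ± 0.18 at E16.5 and 9.07 ± 0.07 at E15.5 (SD, n = 3 each), a log2 change of -1.65 ± 0.10 (SE), or 3.15-fold lower (limma adjusted p = 2.96e-06). Its relatives Alpi, Akp3 and Alppl2, which encode the intestinal and embryonic phosphatases, were below the receptor percentile on all 9 arrays and are named after their values were seen.

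Phex fell on both days and had the largest change among the members. It encodes a membrane endopeptidase of bone and tooth cells whose loss causes X-linked hypophosphataemia. Its values were 8.61, 8.31 and 8.57 at E14.5, 7.80, 7.78 and 7.90 at E15.5, and 5.99, 6.24 and 5.35 at E16.5, with no overlap between any stages. The first-day change was -0.67 ± 0.19 (SE, limma adjusted p = 0.0268), and this call was lost in 5 of the fits that omitted an array. Omitting replicate 1 or 3 of E14.5 gave -0.61 and -0.63, and omitting replicate 1, 2 or 3 of E15.5 gave -0.66, -0.65 and -0.71. The second-day change was -1.97 ± 0.19 (SE, limma adjusted p = 4.11e-05). Over both days Phex averaged 5.86 ± 0.46 at E16.5 and 8.50 ± 0.17 at E14.5 (SD, n = 3 each), 6.23-fold lower (log2 change -2.64 ± 0.19, limma adjusted p = 7.33e-07). In contrast Mme, which encodes neprilysin, a metallopeptidase of the same family, rose by 0.72 over both days (limma adjusted p = 4.14e-05).

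Ibsp, which encodes bone sialoprotein, a protein that binds hydroxyapatite in mineralised bone, was near the low end of the scale on all 9 arrays. Its values were 3.51, 3.65 and 3.72 at E14.5, 3.77, 3.83 and 3.70 at E15.5, and 3.70, 4.09 and 3.54 at E16.5, and all were below the receptor percentile of their array. The stages overlapped and no comparison passed. The change of E16.5 against E14.5 was 0.15 (95% interval -0.14 to 0.44, limma adjusted p = 0.369).

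The cartilage matrix genes stayed close to or below the receptor level. Acan encodes aggrecan, the large proteoglycan that holds water in cartilage. It had values of 4.27, 4.39 and 4.37 at E14.5, 4.77, 4.53 and 4.63 at E15.5, and 4.71, 5.13 and 4.98 at E16.5. Every value exceeded the receptor percentile of its array, by 0.01 to 0.10 at E14.5, 0.12 to 0.43 at E15.5 and 0.32 to 0.56 at E16.5. The E15.5 and E16.5 arrays overlapped, and all lay above the E14.5 arrays.

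Acan rose over both days by 0.59 ± 0.11 (SE), or 1.51-fold (limma adjusted p = 0.00149), and by 0.50 without E16.5 replicate 2 (limma adjusted p = 0.00281). Each single day gave 0.30 ± 0.11 and missed the threshold (limma adjusted p = 0.102 on the first and 0.0986 on the second). The first day passed without E16.5 replicate 1 or 2 (limma adjusted p = 0.0446 and 0.0324), and the second passed at 0.41 without E16.5 replicate 1 (limma adjusted p = 0.0182). Among the receptor genes 16.3% were also called higher at E16.5 than at E14.5.

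Matn1 encodes matrilin-1, a filament-forming protein of cartilage. Its values were 3.55, 3.49 and 3.56 at E14.5, 3.38, 3.55 and 3.56 at E15.5, and 3.64, 4.36 and 3.90 at E16.5, all below the receptor percentile. It was called higher at E16.5 than at E14.5, at 0.43 ± 0.15 (SE, limma adjusted p = 0.0451), and the call did not hold. It ended without any 1 of the arrays except E16.5 replicate 1, and without E16.5 replicate 2 the change was 0.23 (limma adjusted p = 0.0682), with limma adjusted p = 0.0987, 0.118 and 0.0915 without E14.5 replicate 1, 2 or 3, 0.0583, 0.063 and 0.0618 without E15.5 replicate 1, 2 or 3, and 0.0602 without E16.5 replicate 3. On the second day its change was 0.47 (limma adjusted p = 0.054), and 0.64 without E16.5 replicate 1 (limma adjusted p = 0.00864).

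Comp encodes cartilage oligomeric matrix protein, a thrombospondin of cartilage and tendon. Its values were 4.13, 4.26 and 4.14 at E14.5, 4.26, 4.19 and 4.26 at E15.5, and 4.26, 4.79 and 4.38 at E16.5. None exceeded the receptor percentile of its array, and 4 arrays from the 3 stages shared 1 identical value. No comparison passed, with 0.30 (95% interval 0.02 to 0.57, limma adjusted p = 0.0807) for E16.5 against E14.5. That change was 0.14 without E16.5 replicate 2 and passed at 0.41 without E16.5 replicate 1 (limma adjusted p = 0.0224).

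**Figure D2:**
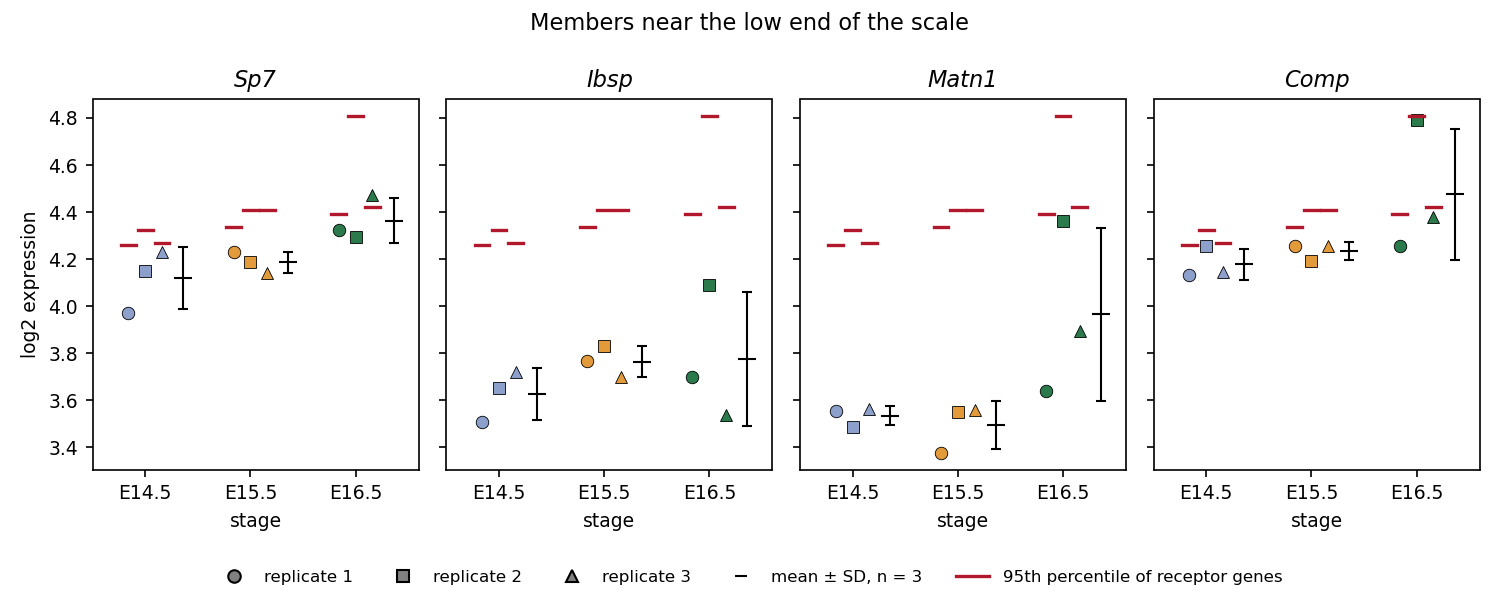
Log2 expression of Sp7, Ibsp, Matn1 and Comp by stage on a shared axis, with markers, mean ± SD of 3 arrays and red receptor-gene lines as in the plot of the brighter members. Nearly all points lie under the red line, and the highest points of Ibsp, Matn1 and Comp (4.09, 4.36 and 4.79) belong to E16.5 replicate 2, whose red line is also the highest.

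Counted together, more of the 10 members passed the threshold on the second day than on the first. Such a count does not show how the changes divided between the days. Runx2 had -0.38 and -0.32 and Acan 0.30 and 0.30 on the first and second day, none of them called. On the first day 0 rose and 1 fell, where 20.3% of all genes changed, 9.07% rising and 11.2% falling. On the second day 2 rose and 2 fell, where 19.7% of all genes changed, 11.2% rising and 8.46% falling. Over both days 4 rose and 3 fell, where 39.4% of all genes changed, 22% rising and 17.4% falling. Members whose stages did not overlap outnumbered those called. On the first day 1 member lay higher and 2 lower on all arrays, where 23.1% of all genes lay higher and 19.7% lower (42.9% in either direction). On the second day 4 lay higher and 2 lower, where 20.3% of all genes lay higher and 12.2% lower (32.5%). Over both days 5 lay higher and 3 lower, where 30.9% of all genes lay higher and 19.3% lower (50.2%).

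The moderated F-test over the 3 stages passed for 6 members, namely Runx2, Sox5, Sox6, Alpl, Phex and Acan, where it passed for 35.1% of all genes. These 6 were also the members above the receptor level at every stage. The median change of the members was 0.08, 0.21 and 0.27 in the same order of comparisons, against 0.03, 0.10 and 0.14 over all genes. The first-day count was 0 without E14.5 replicate 1 or 3 or any 1 E15.5 array, 2 without E14.5 replicate 2 or E16.5 replicate 1, and 3 without E16.5 replicate 2. The second-day count was 5 without that last array, and over both days it was again 7.

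**Figure D3:**
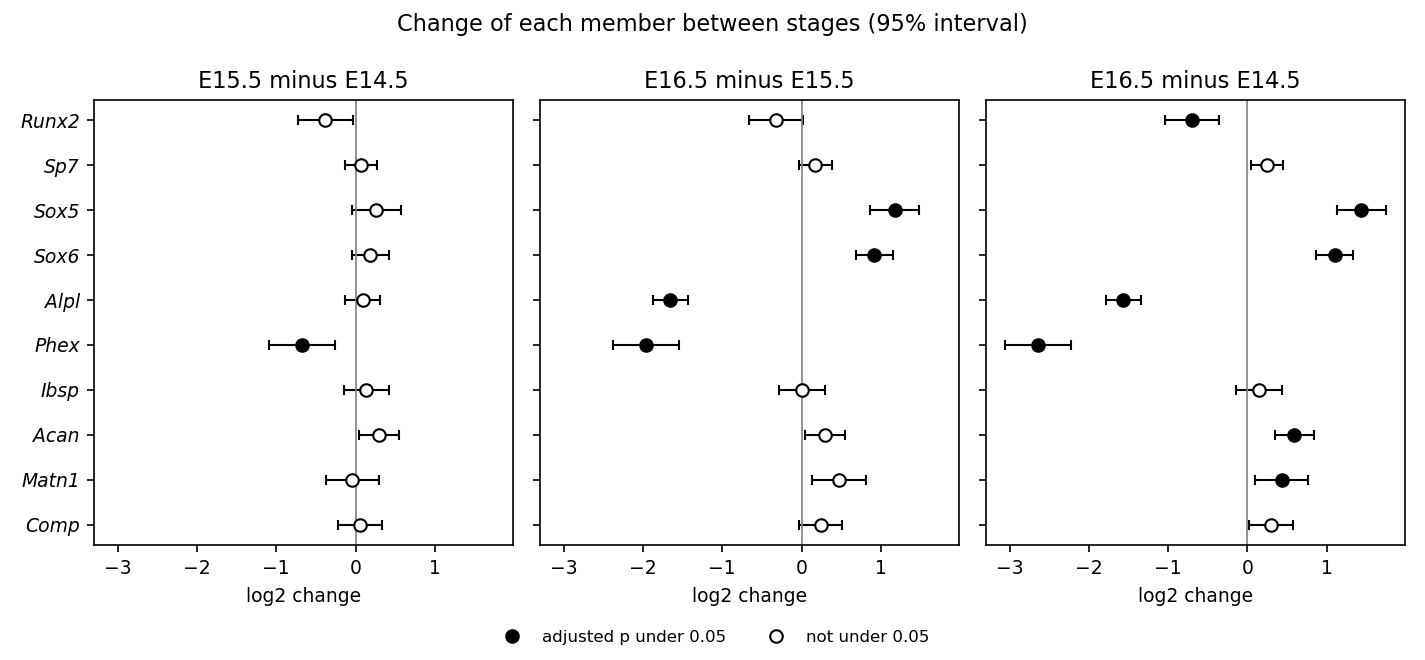
Log2 change of each member with its 95% interval in the 3 stage comparisons, with filled points where the adjusted p was under 0.05. The plot shows 1 filled point on the first day (Phex), 4 on the second (Sox5, Sox6, Alpl and Phex) and 7 over both days.

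The 2 days differed for 3 members. The second-day change minus the first-day change was -1.74 ± 0.17 (SE) for Alpl (limma adjusted p = 3.24e-04), -1.30 ± 0.33 for Phex (limma adjusted p = 0.0466) and 0.74 ± 0.18 for Sox6 (limma adjusted p = 0.0457), where 5.21% of all genes passed, 2.79% with a higher and 2.41% with a lower second-day change. Sox5 had 0.91 ± 0.24 and missed the threshold (limma adjusted p = 0.058). The call for Alpl held without each array in turn. Those of Phex and Sox6 were close to the threshold, and fits without single arrays gave -1.49 to -1.04 for Phex and 0.66 to 0.85 for Sox6. The call for Phex held without E16.5 replicate 2 or 3, and that for Sox6 without E14.5 replicate 3 or E16.5 replicate 1 or 2. With the replicate number as a block the limma adjusted p was 0.0675 for Phex and 0.0746 for Sox6.

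The genes nearest in pattern were found by the root mean square difference between stage means, each centred on the gene's own average, among 19091 genes, leaving out predicted models and similar entries with no function-bearing name. For Alpl they were Hist1h2bj, a histone gene, with a difference of 0.05, and Dusp9, a phosphatase of MAP kinases, with 0.10. For Phex they were Snord52 (0.06), a small nucleolar RNA, and Gas5 (0.09), a snoRNA host gene. Sox5 was followed most closely by Neat1 and Rfxank (both 0.01) and Sox6 by Gpam, an enzyme of glycerolipid synthesis, and Gde1 (both 0.01). Runx2 had Serpinh1, the collagen chaperone HSP47, and Alg2 as nearest genes, both within 0.01, and Acan had Zfp729b and Rprl2, also within 0.01. The likeness rests on 3 stage means of 9 arrays.

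Genes that work with RUNX2 mostly fell. Of 8 partners and inhibitors, 1 rose and 6 fell at E16.5 against E14.5, with a median log2 change of -0.70 against 0.14 over all genes. Cbfb, the subunit that stabilises RUNX proteins on DNA, fell (log2 change -0.92 ± 0.12 (SE), limma adjusted p = 7.45e-05), as did Runx1 at -0.80. The inhibitors Twist2 (-2.29), Twist1 (-0.60) and Zfp521 (-1.15) also fell.

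Sox9 took the opposite course to Sox5 and Sox6. Its log2 expression was 10.5, 10.6 and 10.6 at E14.5, 9.16, 8.94 and 8.79 at E15.5, and 7.26, 6.96 and 7.24 at E16.5, so no stages overlapped. Over both days it fell 10.8-fold (log2 change -3.44 ± 0.11 (SE), limma adjusted p = 3.81e-09). Sox13, the third member of the SoxD group with Sox5 and Sox6, fell by 0.34 in log2 (limma adjusted p = 0.00796) and is named here after its values were seen.

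Among 23 other cartilage genes, 2 rose and 7 fell at E16.5 against E14.5, with a median of -0.08. The share called, 39.1%, was close to the 39.4% of all genes. Besides Sox9, those that fell included Fgfr3 (-1.17), which restrains chondrocyte growth, Lect1 (-0.83), the older symbol of chondromodulin Cnmd, Col11a1 (-0.83) and the link protein gene Hapln1 (-0.51), which ties aggrecan to hyaluronan. At E16.5 Lect1 and Hapln1 exceeded the receptor percentile on 0 of 3 arrays and Fgfr3 on 1. The low end of the scale therefore limits the size of these 3 falls. The parathyroid hormone receptor gene Pth1r rose by 0.33. Col2a1, the main cartilage collagen, fell by 0.74 (limma adjusted p = 0.00987) and is named after its values were seen. Of these 23 genes 21 were above the receptor level at E14.5, 18 at E15.5 and 10 at E16.5, or 17 at E16.5 without its replicate 2.

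Among 23 osteoblast and bone matrix genes, 3 rose and 9 fell, with a median of -0.07, and the share called was 52.2%. The type I collagen genes Col1a1 (-1.17) and Col1a2 (-1.33), which many mesenchymal cells share with bone, fell, as did the osteoblast homeobox gene Dlx5 (-1.11), the osteoclast inhibitor Tnfrsf11b (-1.04) and Panx3 (-0.61). Ank, which exports pyrophosphate or its precursor and so restrains mineral, rose by 0.98. For the cartilage list the number that rose was 1 to 3 and the number that fell 6 to 8 with each array left out in turn, and for the bone list 2 to 5 and 8 to 10, with 5 rising without E16.5 replicate 1.

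Family relatives of the members were called about as often as all genes. Of 21 relatives, some of which also stand in the lists above, 1 rose and 8 fell at E16.5 against E14.5, with a median of -0.07. The share called was 42.9%, against 39.4% of all genes. The thrombospondin genes Thbs1 (-2.17), Thbs3 (-1.69), Thbs4 (-1.55) and Thbs2 (-0.87) all fell, while their relative Comp did not pass. Vcan, which encodes versican, a proteoglycan related to aggrecan, fell by 1.91 ± 0.08 in log2 (SE, limma adjusted p = 1.43e-08), while Acan rose. These differences between relatives were not themselves tested.

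**Figure D4:**
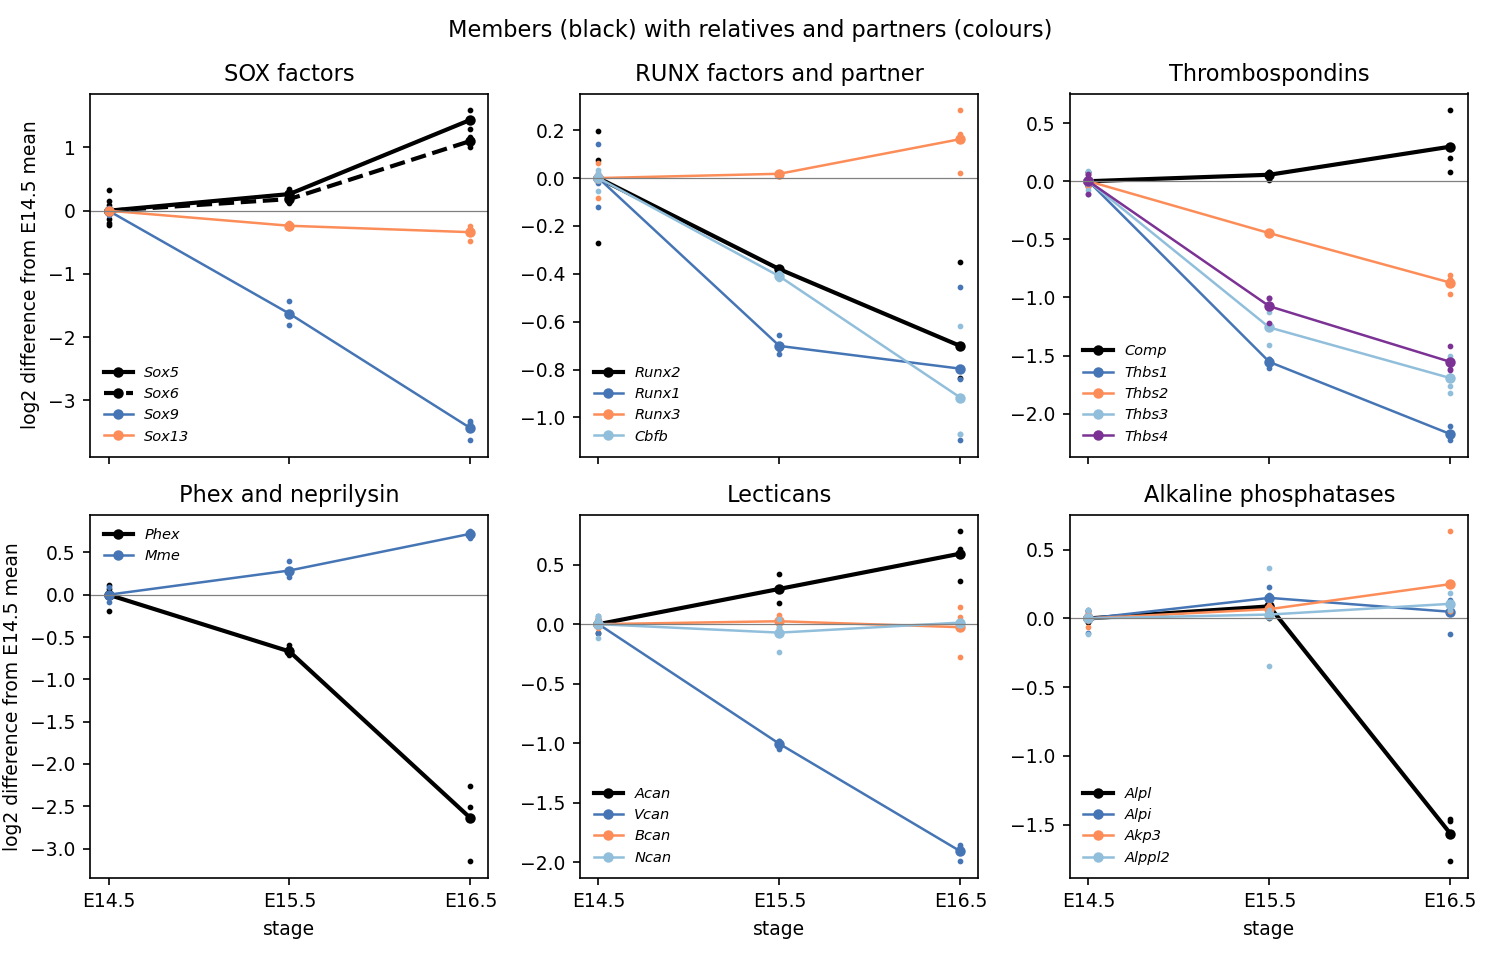
Log2 difference from the gene's own E14.5 mean at each stage for members (black) and their relatives or partners (colours), with lines through the means of 3 arrays and small dots for single arrays, each panel on its own axis. Sox9 has a log2 change of -3.44 while Sox5 and Sox6 rise, Thbs1 to Thbs4 fall while Comp stays near its start, and Phex and Mme part.

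Markers of other cell types were called to unequal degrees at E16.5 against E14.5, where 39.4% of all genes were called. The share was 100% for skeletal muscle and leukocyte genes and 83.3% for tendon genes. For neuron and Schwann cell genes it was 37.5%, close to that of all genes. All 13 skeletal muscle genes fell at E16.5 against E14.5, among them Myog (-2.68), Myod1 (-2.47) and Tmem8c (-2.02), the older symbol of the fusion factor Mymk. Their summed linear expression was 6379 to 8470 at E16.5, 7423 to 8962 at E15.5 and 15455 to 16209 at E14.5, and the E16.5 range was 8312 to 8470 without replicate 2. Of 6 tendon genes 5 fell and 0 rose, among them Thbs4, Fmod (-1.63) and Tnmd (-1.27), and their sum was 282 to 373 at E16.5 against 748 to 813 at E14.5. All 6 leukocyte genes fell, among them Mrc1 (-1.03), with a sum of 1044 to 1175 at E16.5 against 1882 to 2139 at E14.5. Of 8 neuron and Schwann cell genes 3 fell and 0 rose, with Erbb3 3.99-fold lower, and their sum was 374 to 413 at E16.5 against 681 to 769 at E14.5.

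The brown adipocyte and erythroid lists had more genes that rose than fell, and the osteoclast list was mixed. The shares called at E16.5 against E14.5 were 100%, 62.5% and 45.5% in that order, against 39.4% of all genes. All 10 brown adipocyte genes rose, with Cidea at 6.38, Cidec at 6.21 and Plin1 at 5.47, and a sum of 25710 to 27416 at E16.5 against 7194 to 8348 at E14.5. Of 8 erythroid genes 4 rose and 1 fell, with Hbb-y, an embryonic globin, at -3.86, and a sum of 2327 to 3026 at E16.5 against 2245 to 2636 at E14.5. The highest erythroid sum was that of E16.5 replicate 2, and the other E16.5 arrays, at 2327 and 2355, lay within the E14.5 range. Of 11 osteoclast genes 3 rose and 2 fell, with Acp5 at 2.31 and Ctsk at -1.06, and a sum of 819 to 912 at E16.5 against 675 to 694 at E14.5. With each array left out in turn, 2 to 4 of them rose and 2 fell. The sum includes Acp5, whose mean log2 expression was 6.06 at E14.5 and 8.38 at E16.5, so it does not show a rise of the list as a whole. The lowest value in the table was 2.34, so a value above 0 does not show that a marker was expressed. Of the 11 osteoclast genes 8 were above the receptor level at each stage. Of the 8 neuron and Schwann cell genes 6 were above it at E14.5 and 5 at E16.5. The median log2 change was -1.60 for the muscle list, -1.09 for tendon, -0.76 for leukocytes, -0.19 for neurons and Schwann cells, 2.30 for brown adipocytes, 0.43 for erythroid cells and 0.20 for osteoclasts, against 0.14 over all genes. The part of these cell types in the changes of the members was not tested.

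**Figure D5:**
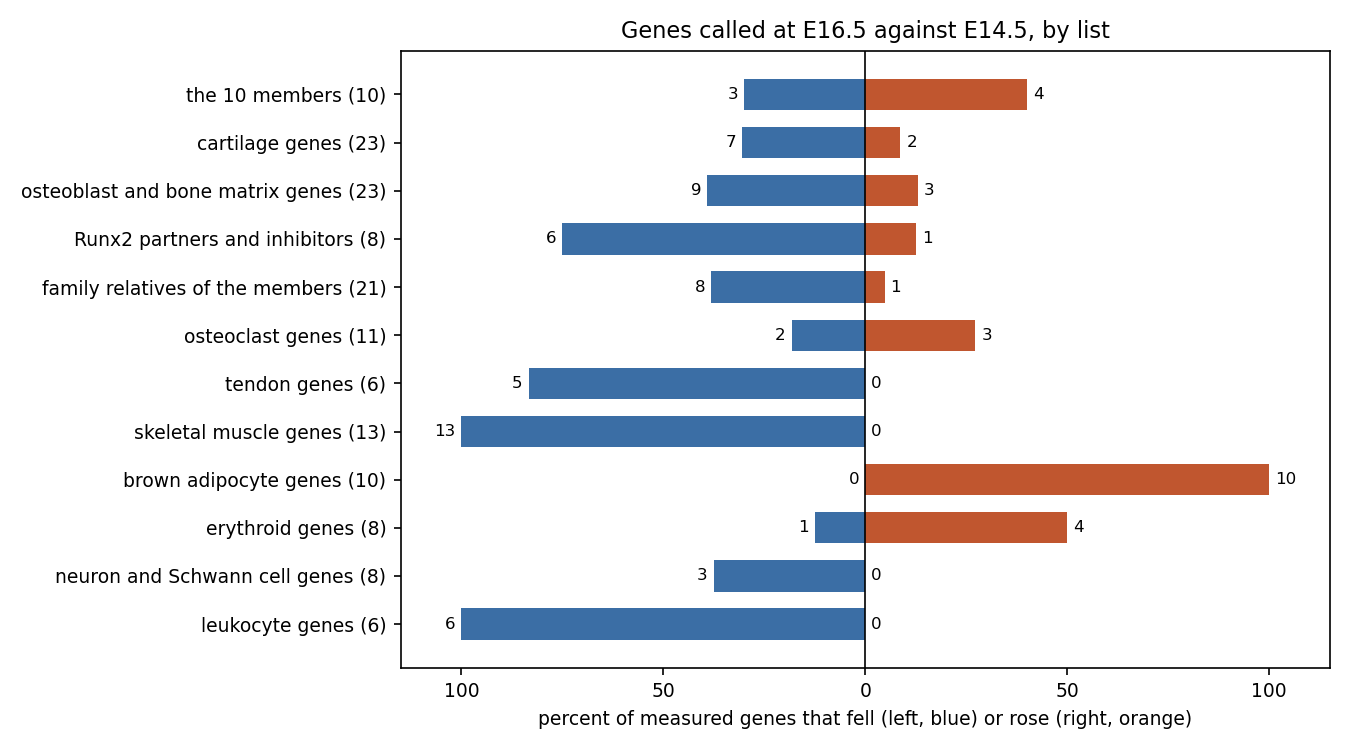
Percent of measured genes that fell (left, blue) or rose (right, orange) at E16.5 against E14.5 in the 10 members and 11 other lists, with the number of genes at each bar and the list size in brackets. The members split 3 to 4, all 13 muscle genes and all 6 leukocyte genes fell, and all 10 brown adipocyte genes rose.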

How the data were processed

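RNA from 9 pools of embryonic BAT was measured on the MoGene-2_0-st platform. Values in the deposited table are log2 expression; the submitters' processing notes name Partek 7.0 and RMA as the tools. The annotation, the build and the way probe sets were combined to 1 value per symbol are not given in the sources used here. In 5702 entries (18.4%) 3 or more arrays shared 1 identical value.

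A linear model (limma 3.58.1, R 4.3.3) covered all 30915 genes and 9 arrays with stage as the only term (6 residual and 4.59 prior degrees of freedom). Stage contrasts, the second-day minus first-day change and a moderated F-test were two-sided, with p-values adjusted across all genes (Benjamini-Hochberg) and a threshold of 0.05. The fit was tested on simulated data. Adjusted p-values in the text come from this fit, or from the alternative named beside them.

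The 11 gene lists held 129 genes outside the members, all matched, 3 by an older symbol. Per list, up to 6 genes (3 for tendon, osteoclast and other cell types) with the smallest F-test p were named, and 1 such result is not reported here. The members and lists were chosen with earlier results of these data known. Promoters came from RefSeq (GRCm38.p6). Same-numbered replicates were checked for pairing, and the correlations of their deviations were -0.13 to 0.10, so the numbers were not taken to pair the samples. Alternatives were quantile normalization, median centring, a filter on dim genes, an intensity trend, 2-stage fits, the replicate block and leaving out each array.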

Additional observations from a re-analysis of the deposited data

Results flagged for a closer look

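For 3 members the change on the second day differed from that on the first by a test of the difference itself. Alpl had a second-day minus first-day change of -1.74 in log2, with no change called on the first day and a fall on the second. Phex had -1.30, with a larger fall on the second day than on the first. Sox6 had 0.74, with a rise called on the second day. The last 2 calls lay close to the threshold (limma adjusted p = 0.0466 and 0.0457). No group had enough arrays for a test of single outlying samples.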

How the results depend on the processing

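Of 15 called changes of single members, 11 kept their direction and their call under every alternative run, those of Runx2, Sox5, Sox6, Alpl, Phex and Acan over both days among them. The exceptions were the first-day call of Phex, the Matn1 call over both days, and the differences between days of Phex and Sox6. The number of members called on the first day was 1 as reported, 2 after quantile normalization or median centring, 3 in a fit to the 2 stages alone, and 0 to 3 with single arrays left out. For the difference between days it was 3 as reported, 1 with the replicate block, and 1 to 3 with single arrays left out. The replicate block moved the counts on the second day to 5 and in the F-test to 7, and left those of the other comparisons as reported. Compared with the arrays of the other stages, 6 of 9 arrays correlated best with one of their own replicate number.

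Changes that missed the threshold also turned sign. Ibsp turned to -0.019 (quantile normalization) and -0.0092 (without E16.5 replicate 2) over both days, where fits without single arrays reached 0.27, and on the second day to -0.11 (quantile normalization), -0.061 (median centring), and -0.15 to 0.13 with single arrays left out, where -0.023 came without E15.5 replicate 3. With single arrays left out, the first-day change of Matn1 was -0.072 to 0.019, the highest without E15.5 replicate 1, and that of Sp7 was -0.0052 to 0.12, the lowest without E14.5 replicate 1. The difference between days of Runx2 turned to -0.082 (quantile normalization), -0.021 (median centring), -0.038 (without E14.5 replicate 1) and -0.12 (without E16.5 replicate 2), within -0.12 to 0.20 over single arrays left out, and that of Acan, -0.12 to 0.13 over the same fits, to 0.035, 0.13 and 0.11 (without replicate 1 of E14.5, E15.5 or E16.5). The cause was not tested. Leaving out arrays for the gene lists, their sums included, was chosen after seeing the data. The filter on dim genes left 18035 genes and 6 members, so it gave no values for Sp7, Ibsp, Matn1 and Comp. Signal near the receptor level limits what can be said of those 4 genes, of Acan, and of Runx2 at E16.5.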
